A study of Mus musculus with 17 samples.

Results

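The 8 genes Pparg, Ppard, Rxra, Rara, Nr1h3, Nr3c1, Nr4a1 and Nr5a2 encode members of the nuclear receptor family, and were followed here at the sites where RUNX1 and CHD7 were found on chromatin of mouse myeloid progenitor cells. They are 8 of 49 nuclear receptor genes and 8 of 21887 protein-coding genes with a position in the RefSeq gene table. They were chosen by measured values of these same peak lists: Pparg holds a high-ranked RUNX1 site that was called without the leukaemia fusion protein and not with it, and Nr5a2 holds a site of the opposite kind. Their calls are therefore given as a description, without a test. For each gene, every peak that overlapped the gene body or the 50 kb on either side was counted, which gave 44 of the 21664 RUNX1 sites and 85 of the 85223 CHD7 sites in the data.

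Nuclear receptors are transcription factors with a zinc-finger DNA-binding domain and, in most members, a pocket that binds a small lipophilic ligand. Ppar, Rar and Lxr receptors bind DNA as heterodimers with an Rxr partner, whereas the glucocorticoid receptor acts mainly as a homodimer and several members, called orphan receptors, act without a known physiological ligand. In blood cells, Pparg and Nr1h3 are best known for lipid handling in macrophages, Rara for granulocyte differentiation and Nr4a1 for its rapid induction by external stimuli.

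The study profiled RUNX1, a DNA-binding factor needed for blood formation, and CHD7, an ATP-dependent chromatin remodeller, by chromatin immunoprecipitation and sequencing in 416B, a mouse myeloid progenitor cell line. The cells called CM +Dox carried a tetracycline-responsive plasmid with the type A Cbfb-Myh11 (CM) cDNA, followed by an F2A element and mCherry, and received doxycycline at 1 µg/ml for 24 hours, which induces CM; CM -Dox cells carried the same plasmid without the drug. Control +Dox and Control -Dox cells carried a plasmid without CM (Control-ATG in the labels), with and without the drug, and all cells also expressed the tetracycline silencer and transactivator under an Ef1alpha promoter. Cbfb-Myh11 is the fusion of the RUNX1 partner Cbfb with a smooth muscle myosin made by inversion of chromosome 16 in acute myeloid leukaemia. The cultures grew from sorted single cells and were picked after a test of induction, so each construct stands for selected clones, whose number the labels do not give. Each antibody had 2 libraries in each of the 4 conditions, 16 in all, while 1 IgG sample of the 17 was not analysed here. The labels do not say whether the 2 replicates of a condition came from separate cultures.

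The peak lists of the 16 libraries differed in length. RUNX1 lists held 8140 and 9710 peaks in CM +Dox, against 12603 to 16163 in the other 6 libraries, and CHD7 lists held 31688 to 33462 in CM +Dox, against 16323 to 37698 in the others. Read depth is unknown, and a shorter list can miss a site for that reason alone, whose part in each missing call was not tested except where stated. The deposited p-value threshold was 1e-09 in 5 RUNX1 lists and 1e-07 in 3, of which 1 is CM +Dox replicate 1, and 0.01 in all 8 CHD7 lists. In the RUNX1 list of Control -Dox replicate 1 the peak names hold a +Dox tag that goes against its label. The tag is missing from the RUNX1 lists of CM +Dox replicate 2 and Control +Dox replicate 2, and from all 8 CHD7 lists. All libraries were kept in their labelled groups. Peak lists hold no expression and cannot check the cell type. All 10 myeloid progenitor marker genes examined had in their window a RUNX1 site shared by the 6 libraries without induced CM. Of the 10 adipocyte and liver marker genes examined, 3 had one. For CHD7 sites shared in the same way the counts were 5 of 10 and 3 of 10. The share over all genes was not counted.

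A site below is a stretch of merged peaks from the 8 lists of an antibody. It is called lost when all 6 libraries without induced CM had a peak there and neither CM +Dox library did, and gained when both CM +Dox libraries had one and none of the 6 did. Peak strength is given as a percentile rank of the authors' score within its own list, with 100 the highest. Since lists differ in length, ranks describe where a peak stands in its library and do not measure a change between libraries. Positions are in mm10 (GRCm38.p6).

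Peaks lay over an annotated start of only 2 of the 7 receptor genes whose starts are in the RefSeq promoter table: Ppard and Rara. These starts are shown here, with the start regions of 3 neighbouring genes that had calls in all 8 lists of an antibody (Def6, Atg101 and Acp2), to set starts with calls in every condition beside the receptors' own. Each runs from 250 bases before to 50 bases after the start, on the + strand of GRCm38.p6, from RefSeq. Capitals mark the RUNX core motif TGTGGT, its variant TGCGGT or the nuclear receptor motif AGGTCA, searched on both strands.
Ppard start, chr17:28232504-28232803, RUNX1 called in both CM +Dox libraries and 5 of the other 6: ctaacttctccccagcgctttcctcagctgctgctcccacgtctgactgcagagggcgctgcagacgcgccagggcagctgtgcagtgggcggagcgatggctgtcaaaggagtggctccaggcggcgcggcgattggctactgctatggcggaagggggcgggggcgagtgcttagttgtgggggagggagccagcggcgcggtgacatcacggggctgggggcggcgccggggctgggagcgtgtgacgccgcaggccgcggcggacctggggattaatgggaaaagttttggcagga
Rara start, chr11:98937446-98937745, RUNX1 called in 1 CM +Dox library and none of the other 6: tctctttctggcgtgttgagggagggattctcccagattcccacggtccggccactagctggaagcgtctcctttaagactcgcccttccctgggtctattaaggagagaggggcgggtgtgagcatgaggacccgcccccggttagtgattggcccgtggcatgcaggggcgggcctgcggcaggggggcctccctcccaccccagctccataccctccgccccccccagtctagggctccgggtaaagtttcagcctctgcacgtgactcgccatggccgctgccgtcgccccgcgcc
Def6 start, chr17:28207528-28207827, RUNX1 called in both CM +Dox libraries and all of the other 6: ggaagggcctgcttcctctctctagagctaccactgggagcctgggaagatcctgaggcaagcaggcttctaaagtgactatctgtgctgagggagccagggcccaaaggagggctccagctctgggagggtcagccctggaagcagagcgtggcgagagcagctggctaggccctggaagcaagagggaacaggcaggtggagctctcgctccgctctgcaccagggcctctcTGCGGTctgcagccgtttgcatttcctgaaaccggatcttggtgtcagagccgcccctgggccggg
Atg101 start, chr15:101284051-101284350, RUNX1 and CHD7 each called in both CM +Dox libraries and all of the other 6: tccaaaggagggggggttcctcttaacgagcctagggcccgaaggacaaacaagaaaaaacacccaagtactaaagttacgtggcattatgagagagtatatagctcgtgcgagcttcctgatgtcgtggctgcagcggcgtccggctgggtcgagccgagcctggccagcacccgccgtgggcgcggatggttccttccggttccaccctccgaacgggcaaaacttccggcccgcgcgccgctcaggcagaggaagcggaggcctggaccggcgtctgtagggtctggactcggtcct
Acp2 start, chr2:91202662-91202961, CHD7 called in both CM +Dox libraries and all of the other 6, RUNX1 in none: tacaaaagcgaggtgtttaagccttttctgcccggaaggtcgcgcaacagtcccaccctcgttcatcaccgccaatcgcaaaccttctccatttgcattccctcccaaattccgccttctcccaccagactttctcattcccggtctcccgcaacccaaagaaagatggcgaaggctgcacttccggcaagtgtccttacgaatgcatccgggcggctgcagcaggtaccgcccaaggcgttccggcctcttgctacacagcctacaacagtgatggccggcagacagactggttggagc

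Of these 5 windows only that of Def6 held one of the 3 motifs, a single TGCGGT. Over all 32851 promoters in the table, 16.8% held TGTGGT, 6.45% held TGCGGT and 16.3% held AGGTCA, so windows without a match are common. The absence of a match says only that these letters are not in the window. The Pparg, Rxra, Nr1h3, Nr4a1 and Nr5a2 starts had no peak of either antibody in any library over the same 300-base windows. The promoter-table starts of Nr1h3, Nr4a1 and Rara lie well inside their gene bodies, however, so these windows do not cover the 5′ ends of those genes. The 5′ end of the Nr1h3 gene body lies under the CHD7 site at Acp2. The member sites described next lie away from annotated starts unless stated.

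Over the 8 genes together, 4 RUNX1 sites were lost and 1 was gained. Of the 18 RUNX1 sites called in all 6 libraries without induced CM, the 4 lost ones are 22.2%, against 27.9% of all such sites in the data. Another 3 were called in 1 CM +Dox library (16.7%, with 15.4% over all such sites) and 11 in both (61.1%, with 56.7% over all such sites). The 4 lost sites lie in 3 of the 8 gene windows, those of Pparg (2 sites), Nr1h3 and Nr3c1, and 19.3% of all protein-coding genes have a lost RUNX1 site in a window of the same kind. Receptor windows span 119 to 230 kb (median 178 kb), against a median of 117 kb over all genes, so more sites could fall in them. A single RUNX1 site was gained, at Nr5a2, 1 of 20 called in both CM +Dox libraries or 5%, against 2.65% of all such sites and 2.07% of genes. Because the members were chosen on these calls, nothing is read from the counts. When every RUNX1 list was limited to the number of peaks of the shortest, 1 lost and 8 gained sites were counted in the same windows, and the lost one was at Pparg. Over all sites that setting gave 1151 lost and 901 gained, against 2384 and 181 with the lists as deposited. Without the RUNX1 library whose peak names go against its label, 5 lost sites and 1 gained site were counted, with 2473 and 216 over all sites.

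**Figure D1:**
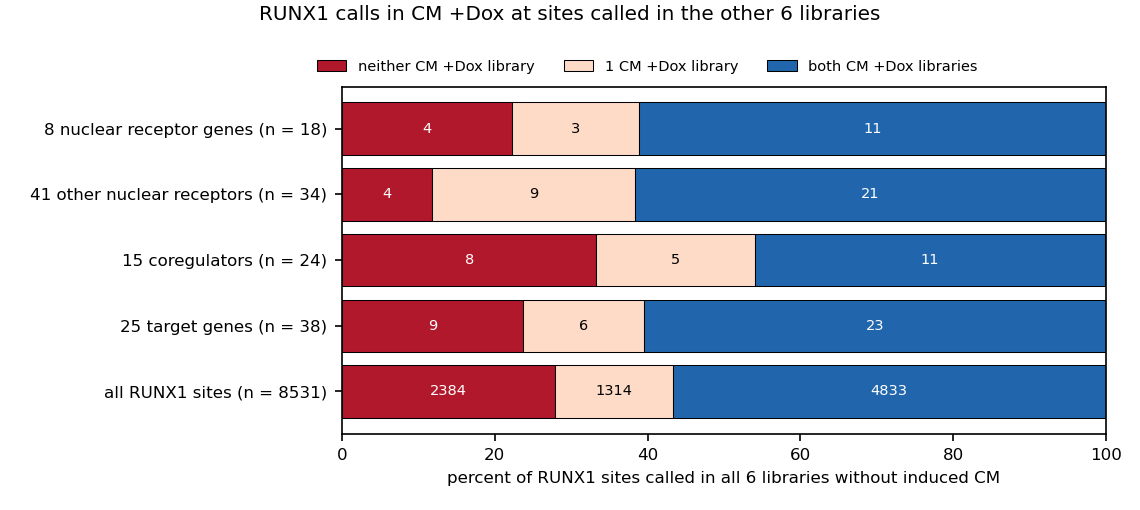
Share of RUNX1 sites called in all 6 libraries without induced CM that had a peak in neither, 1 or both CM +Dox libraries (x axis, percent; numbers in the bars count sites), for windows of the 8 receptor genes, 3 related gene lists and all sites. The lost share is 22.2% in the 8 receptor windows and 27.9% over all sites.

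Set against CM -Dox alone, 7 of 25 RUNX1 sites called in both CM -Dox libraries had no peak in CM +Dox (28%), with 35.4% over all sites, and 3 of 20 were called in both CM +Dox libraries and neither CM -Dox library (15%), with 6.06% over all sites. The 7 are the 4 lost sites, a second site in Nr3c1, and 2 sites at Ppard with ranks of 43.7 and 64 and of 5.55 and 3.89 in CM -Dox, and the 3 are the Nr5a2 site and a pair upstream of Nr4a1. In Control +Dox against Control -Dox, cells without CM, 0 of 23 sites were lost and 0 of 25 gained, with 3.16% and 1.39% over all sites, so that counts of 0 in so few sites are near the background. This comparison rests on the library with the contrary +Dox tag. Without it, 1 of 27 sites was lost, a site beyond Pparg, and 2 of 25 were gained, at the Ppard start and in Ddb2 near Nr1h3, with 10.3% and 5.7% over all sites.

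For CHD7, 8 sites in the member windows were called in all 6 libraries without induced CM, of which 1, at Pparg, was lost (12.5%), while 1 had a call in a single CM +Dox library and 6 in both. Over all sites the lost share was 3.65%, and 2.05% of genes had a lost CHD7 site in their window. The shares over all sites for a call in 1 or both CM +Dox libraries were not counted. Of 18 CHD7 sites called in both CM +Dox libraries, 1, near Nr3c1, was gained (5.56%), against 8.26% of all sites and 8.41% of genes. That gained count depends on single libraries, being 9 without CM +Dox replicate 1, 13 without CM +Dox replicate 2 and 3 without CM -Dox replicate 2. Over all sites the gained count moved likewise, to 8624, 14162 and 1931 in the same order, against 1181 with all libraries. The lost count was 2 without CM +Dox replicate 2 or without CM -Dox replicate 1, with 793 and 336 lost over all sites, against 211 with all libraries. Against CM -Dox alone, 1 of 13 CHD7 sites was lost and 1 of 18 gained, with 10.9% and 15.1% over all sites. In Control +Dox against Control -Dox, 2 of 13 were lost (near Rara and in Ppard) and 0 of 10 gained, with 9.76% and 9.56% over all sites. In the member windows, 51 of the 85 CHD7 sites were called in 1 library only, compared with 8 of the 44 RUNX1 sites. The CHD7 lists were made at a looser p-value threshold than the RUNX1 lists. The part of that threshold in the difference was not tested. The shares of such sites over all CHD7 and all RUNX1 sites were not counted.

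**Figure D2:**
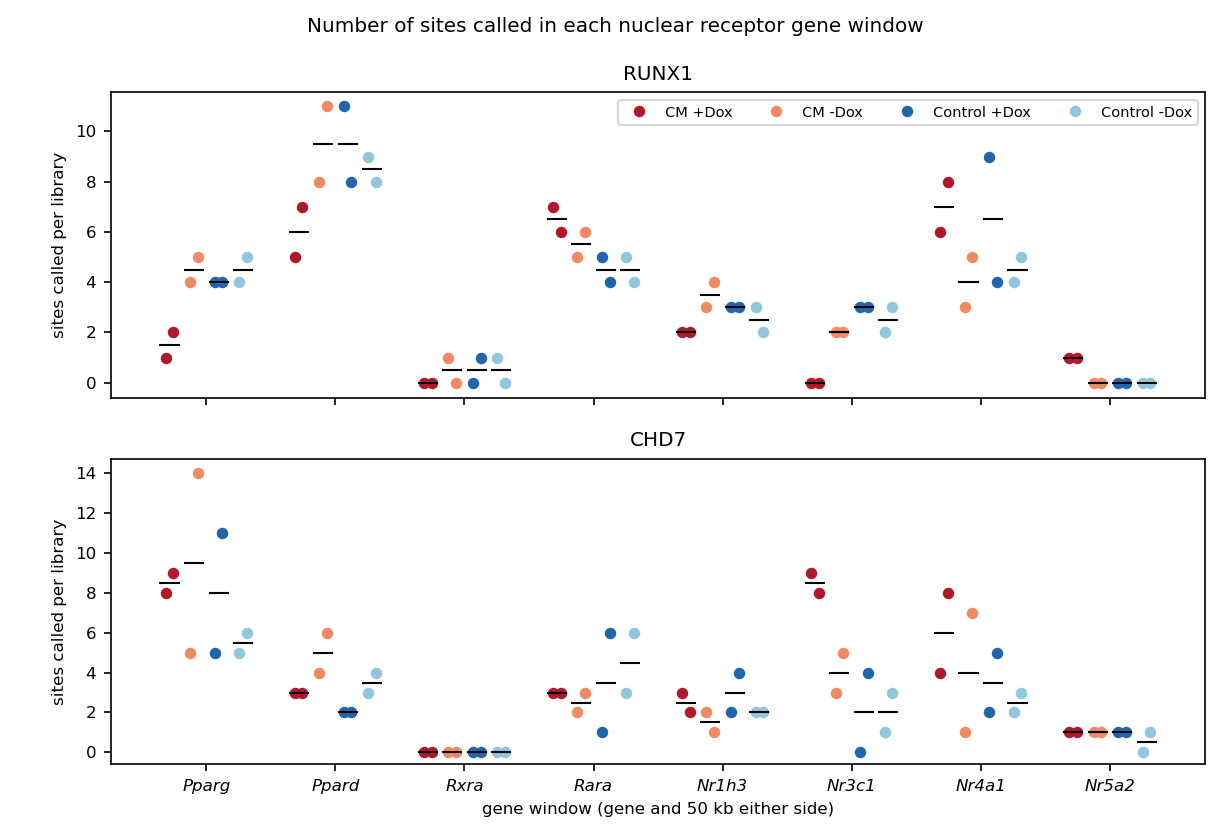
Number of RUNX1 (top) and CHD7 (bottom) sites called in each library (y axis) in the window of each receptor gene (x axis); points are libraries, colours conditions and black bars the mean of 2 libraries. Pparg, Ppard and Nr3c1 have fewer RUNX1 sites in both CM +Dox libraries than in each of the other 6, and Nr5a2 has its RUNX1 site in CM +Dox only.

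Pparg, the receptor that drives adipocyte differentiation and lipid handling in macrophages, had 1 and 2 RUNX1 sites in CM +Dox, against 4 or 5 in each of the other 6 libraries. With Ppard and Nr3c1 it is 1 of 3 receptor genes with fewer RUNX1 sites in both CM +Dox libraries than in each of the other 6. Of all genes, 13.4% had fewer. Nr5a2 is 1 receptor gene with more, which holds for 0.434% of all genes. The only RUNX1 site of Nr5a2 is the gained one it was chosen on, so that count follows from the choice. Pparg too was chosen on a lost site. The Pparg gene spans 115360879 to 115490404 on the + strand of chromosome 6, with annotated starts near its beginning and another 60.92 kb in. The 4 RUNX1 sites that recurred between libraries all lie inside the gene, downstream of that last start. They differ from one another in their calls with CM, in an order that follows their position.

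The first of them, at chr6:115434019-115434463, lies 12.2 kb downstream of the nearest Pparg start. It had no RUNX1 peak in either CM +Dox library, while its rank was 98.5 and 98.7 in CM -Dox, 98.6 and 98 in Control +Dox, and 98 and 97.3 in Control -Dox. All 6 libraries without induced CM thus placed it among the strongest few percent of their peaks. With a mean rank of 98.2 it stood 6th among the 2384 lost RUNX1 sites of the whole data. The CHD7 calls at the same interval followed the same division: no peak in either CM +Dox library, against ranks of 91.8 and 85.9 in CM -Dox, 88.9 and 70.2 in Control +Dox, and 61.3 and 78.7 in Control -Dox. The merged CHD7 site over it, chr6:115433576-115434954, was the 30th of 211 lost CHD7 sites by mean rank. CM +Dox CHD7 lists are among the longer ones, and they do hold peaks close by that do not touch the site: replicate 1 had one at rank 67.1 (chr6:115435973-115436195), and replicate 2 had a pair at rank 28.7, one on either side.

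The second RUNX1 site, chr6:115440502-115440946, lies 18.7 kb downstream of the same start and was lost too, at lower ranks. It had no RUNX1 peak in CM +Dox, against 75.9 and 86.8 in CM -Dox, 41.1 and 65.5 in Control +Dox, and 38.3 and 74 in Control -Dox. A CHD7 peak over the interval was absent from both CM +Dox libraries, and ranked 84 and 85.9 in CM -Dox, 71.4 and 84.3 in Control +Dox, and 86.9 and 78.7 in Control -Dox. The wider merged CHD7 site here was not lost, since CM +Dox replicate 2 had a peak of rank 28.7 inside it that missed the RUNX1 interval. This RUNX1 site was no longer counted as lost with only peaks at or above the median score, or with lists of the same length.

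Farther into the gene the RUNX1 calls in CM +Dox were kept in part or in full. At chr6:115462916-115463426, 41.1 kb downstream of the start, RUNX1 was not called in CM +Dox replicate 1 and ranked 12.1 in replicate 2, against 44.1 and 63.6 in CM -Dox, 14 and 32.8 in Control +Dox, and 30.2 and 45.4 in Control -Dox. CHD7 was called there in all 8 libraries, at 59.5 and 91.6 in CM +Dox and at 12.9 to 96.7 in the others. The last site, chr6:115479999-115481062 at 58.5 kb, was called in all 16 libraries. Its RUNX1 rank was 37.1 and 46.9 in CM +Dox, 31.8 and 63.6 in CM -Dox, 37.4 and 41.1 in Control +Dox, and 33.3 and 58.3 in Control -Dox, so the CM +Dox values fell inside the range of the rest. Its CHD7 rank was 95.2 and 96.4 in CM +Dox, 89.2 and 96.4 in CM -Dox, 91.8 and 96.6 in Control +Dox, and 91.4 and 93 in Control -Dox, again overlapping. The highest-ranked RUNX1 site of the gene was thus lost, while a weaker RUNX1 site under a strong CHD7 peak was called throughout.

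A CHD7 site with no RUNX1 peak in any library, chr6:115380505-115381458 near the first starts (18.6 kb downstream), was called in all 8 CHD7 lists, at ranks of 24.7 and 96.8 in CM +Dox and from 3.25 to 86.9 in the others, with no separation of the conditions. Of the 28 CHD7 sites in the Pparg window, 22 were each called in 1 library only. A pair of further RUNX1 sites beyond the gene end were called in 1 library each, Control -Dox replicate 2 and CM -Dox replicate 2, at ranks of 36.9 and 13.5.

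**Figure D3:**
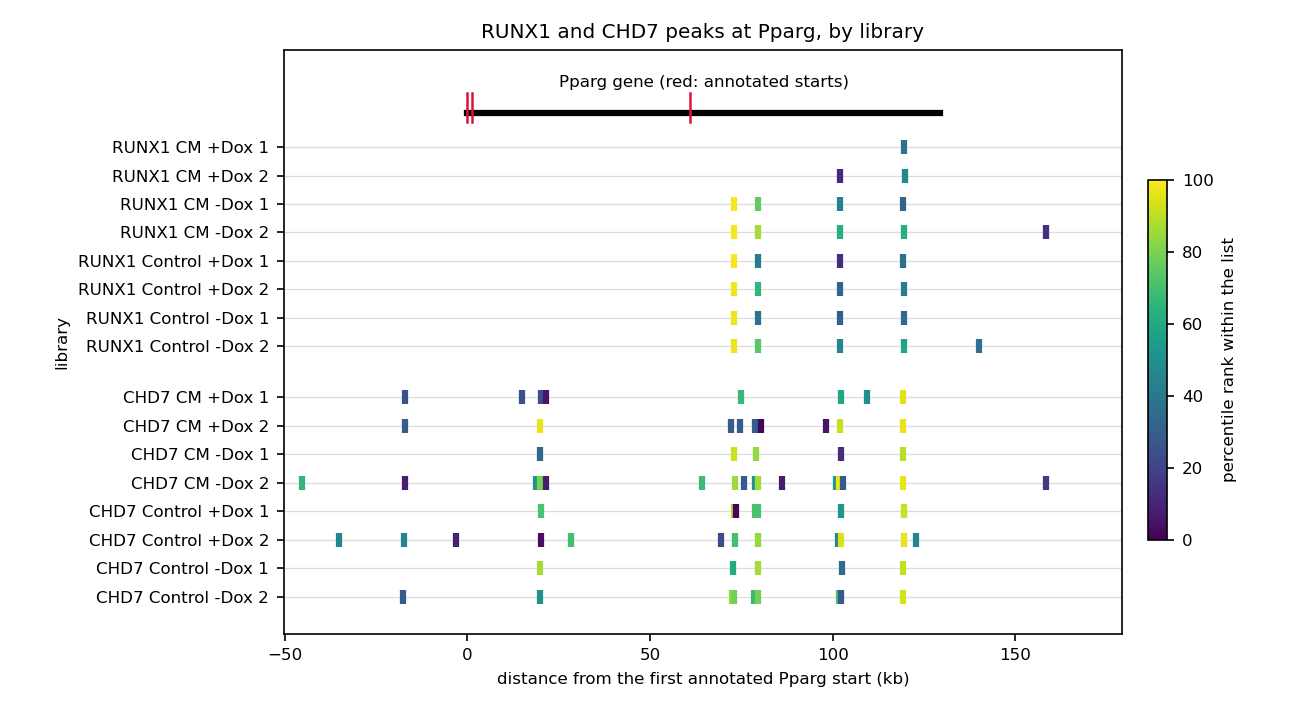
RUNX1 and CHD7 peaks in the Pparg window by library (rows, CM +Dox at the top of each antibody's 8 rows) against the distance of the peak centre from the first annotated Pparg start (x axis, kb); colour is the percentile rank within the list, and the black bar is the gene. The RUNX1 peaks 12.2 and 18.7 kb after the last start are missing in both CM +Dox rows, and the site 58.5 kb after it is called in all 16 rows.

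Few sites elsewhere shared the pattern of the first Pparg site. Of the 2384 lost RUNX1 sites, 70 (2.94%) had a CHD7 peak in all 6 libraries without induced CM and in neither CM +Dox library, and 2 of those 70 are the lost sites in Pparg. By distance over 16 values (8 RUNX1 and 8 CHD7 ranks, 0 where not called), the sites most like the first Pparg site lay 43.6 kb from Map4k3 (distance 13), in Ripor1 (28.1), 52.5 kb from Slc24a5 (33.3), in Klhl2 (34) and 111 kb from Il6 (35.5). They were picked on these same values, so a like pattern of calls is given by the choice. Of the 5, the Ripor1 site was not itself lost, having a weak RUNX1 peak in 1 CM +Dox library.

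Ppard, a fatty-acid-activated relative of Pparg expressed in many tissues, had no lost or gained RUNX1 site. Of the 4 sites that all 6 libraries without induced CM called, 2 were called in both CM +Dox libraries and 2 in 1 of them. Its window held 5 and 7 RUNX1 sites in CM +Dox, against 8 to 11 in the other 6 libraries. The gene spans 28232754 to 28301469 on the + strand of chromosome 17. A site 15.1 kb downstream of the start, chr17:28247635-28248046, was called in all 8 lists, at 92.3 and 97.7 in CM +Dox, 97.2 and 97.4 in CM -Dox, 96.5 and 95.4 in Control +Dox, and 96.9 and 98.1 in Control -Dox. The CM +Dox ranks overlap the rest, and CHD7 was called there in 0 CM +Dox libraries and 3 of the others.

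At the Ppard start itself (chr17:28232421-28232814, over the sequence printed above) RUNX1 ranked 75.1 and 53.9 in CM +Dox, 37.8 and 24.8 in CM -Dox, 11.6 and 6.36 in Control +Dox, and 48.6 in Control -Dox replicate 1, with no call in replicate 2. Both CM +Dox ranks exceeded all of the others, in lists that are shorter. How often that holds over all RUNX1 sites that some library did not call was not counted. At the start of Def6, 24.8 kb upstream, RUNX1 was called in all 8 libraries, with a rank of 78 in both CM +Dox libraries, 89.7 and 87.3 in CM -Dox, 94.7 and 88.1 in Control +Dox, and 92.4 and 87.3 in Control -Dox. Here both CM +Dox ranks lay below the rest. CHD7 was not called at the Def6 site in any library.

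The other Ppard sites were weaker. A site at Rpl10a, 26.7 kb beyond the gene, ranked 2.51 in CM +Dox replicate 1 and was not called in replicate 2, against 55.6 to 76.1 in the other 6 libraries. CHD7 stood over it at 75 and 95.7 in CM +Dox and at 43.9 to 94.8 in 5 of the other 6, so the CHD7 peak was called while RUNX1 was near or under its threshold. An intragenic site 24.2 kb in was called in CM +Dox replicate 2 alone of that pair, at 7.97, and at 2.62 to 44.4 in the others. A site at Fance, 11.8 kb past the gene, ranked 62.3 and 39.4 in CM +Dox and 0.546 to 13.5 in the 4 other libraries that called it. The 2 of its sites lost against CM -Dox alone lie 47.3 kb upstream and 27.4 kb into the gene.

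Rxra, the shared heterodimer partner of the Ppar, Rar and Lxr receptors, was nearly free of peaks. Its window of 187 kb held a single RUNX1 site, 1.66 kb beyond the gene, which was called in neither CM +Dox library, in CM -Dox replicate 1 (rank 24.5), in Control +Dox replicate 2 (12.9) and in Control -Dox replicate 1 (18.6). It held no CHD7 site in any library.

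Rara, the retinoic acid receptor that is fused to PML in acute promyelocytic leukaemia, had 7 and 6 RUNX1 sites in CM +Dox, against 4 to 6 in the other 6 libraries, and none was lost or gained. The gene lies on the + strand of chromosome 11, from 98927800 to 98974942. Behind its first promoter-table start, a site at chr11:98941799-98942454 ranked 60.6 and 85.1 in CM +Dox, 68 and 85 in CM -Dox, 78.4 and 85.4 in Control +Dox, and 76.8 and 77.1 in Control -Dox, with overlap. A second site at chr11:98943352-98943724 ranked 80.3 and 87.2 in CM +Dox, 38.8 and 60.3 in CM -Dox, 50.2 and 72.9 in Control +Dox, and 57.4 and 71.5 in Control -Dox. At that site both CM +Dox ranks exceeded all others. The start between those sites and the upstream neighbour Cdc6 had a RUNX1 peak in CM +Dox replicate 1 alone, at 60.5. No CHD7 peak overlapped these 3 sites in any library.

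Sites at the neighbours of Rara were kept as well. A site in the replication gene Cdc6 ranked 67 and 71.3 in CM +Dox and 46.4 to 72.3 in the others, and one at Top2a, which encodes a DNA topoisomerase, ranked 80.1 and 75.6 in CM +Dox and 51.7 to 85.3 in the others. Both overlap between conditions. A CHD7 site in the Cdc6 part of the window was called in all 8 lists, at 37.5 and 13.8 in CM +Dox and at 15.8 to 79.5 in the others.

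Across the 11 member sites with a RUNX1 call in all 8 libraries, both CM +Dox ranks lay above the other 6 at 1 site, in Rara, and below them at 2, at Def6 and at the 3′ end of Nr1h3. These are 9.09% and 18.2% of the 11, against 16.6% and 27.5% of all 4833 RUNX1 sites called in all 8 libraries. Sites that fewer libraries called are outside this count. At the Ppard start, Fance, Ddb2 and Grasp both CM +Dox ranks exceeded those of the other libraries with a call. At a weaker site in Cdc6 both lay below the only other call.

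**Figure D4:**
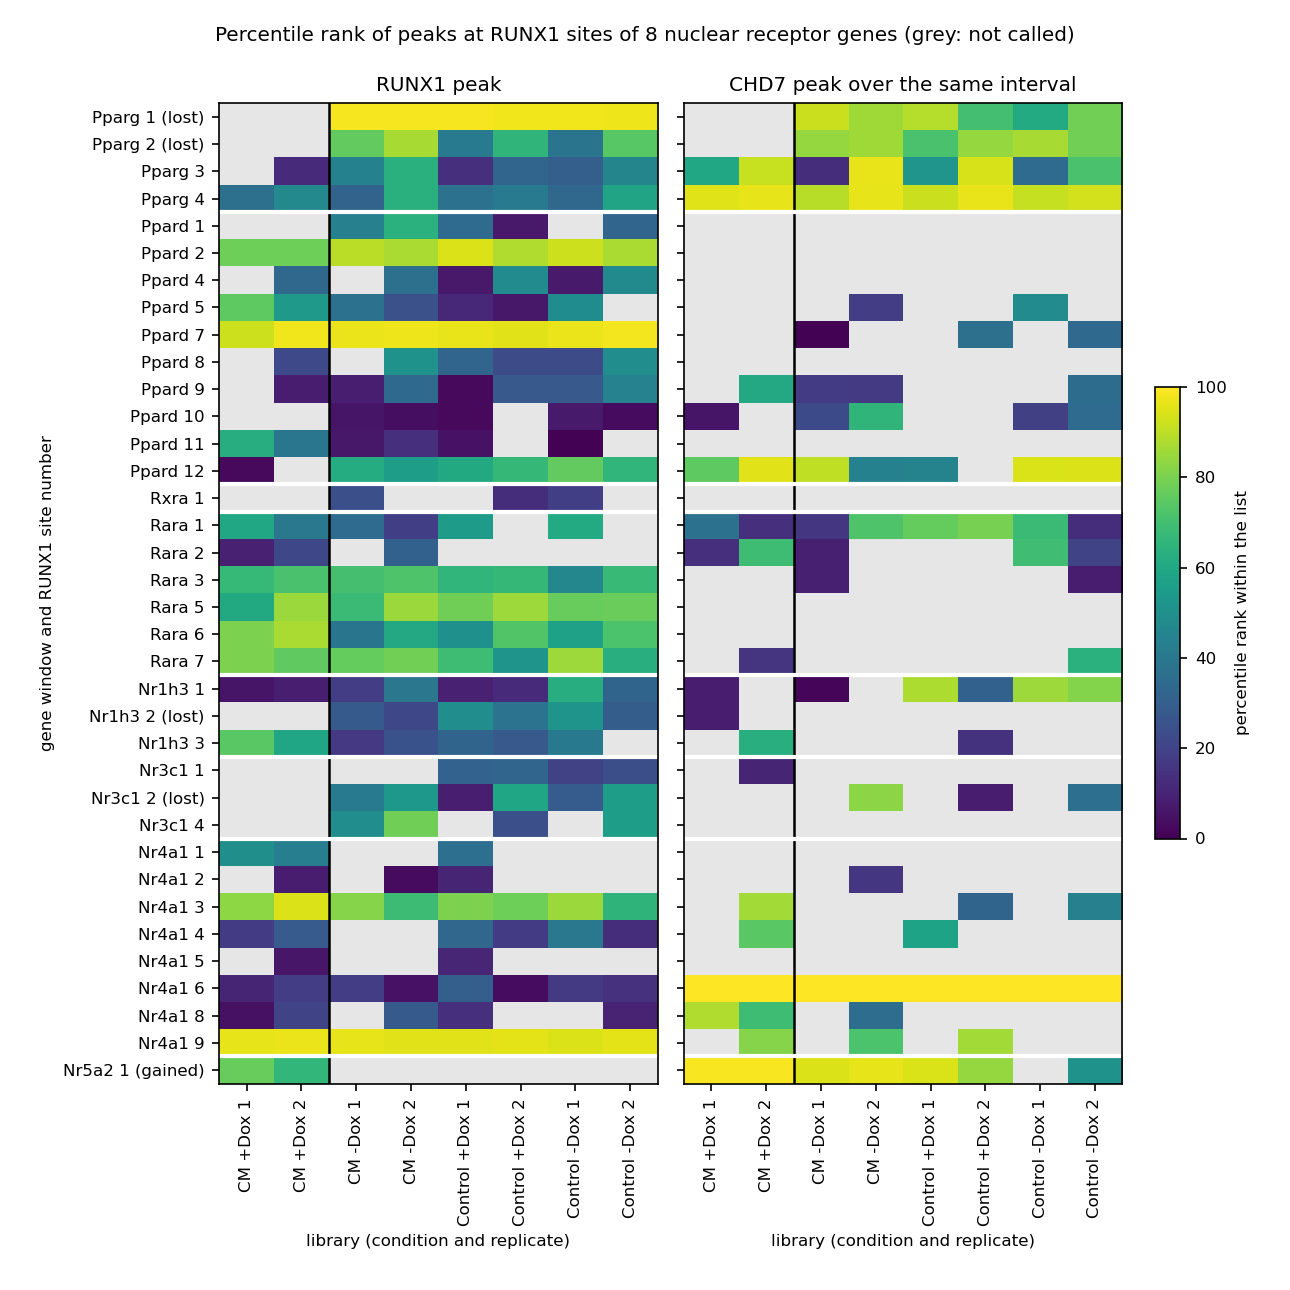
Percentile rank (colour) of the RUNX1 peak (left) and of the CHD7 peak over the same interval (right) in each library (columns, CM +Dox left of the black line) at RUNX1 sites of the 8 receptor windows that 2 or more libraries called (rows); grey means not called. The first Pparg rows are grey in CM +Dox for both antibodies, and the Nr5a2 row has RUNX1 in CM +Dox only but CHD7 in nearly every library.

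Nr1h3, the oxysterol receptor that raises cholesterol efflux genes in macrophages, spans 91184061 to 91202829 on the − strand of chromosome 2. Its lost RUNX1 site, chr2:91183850-91184179, sits on the 3′ end of the gene, where the gene Madd also reaches. RUNX1 was not called there in CM +Dox, and ranked 28.2 and 21.5 in CM -Dox, 49 and 38.1 in Control +Dox, and 51.6 and 29.3 in Control -Dox. At a mean rank of 36.3 it stood 1982nd of 2384 lost sites. It was no longer counted as lost with only peaks at or above the median score or with lists of the same length. A CHD7 peak touched it in CM +Dox replicate 1 only, at 7.54.

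An adjoining site in Madd was called in all 8 RUNX1 lists, at 5.66 and 8.41 in CM +Dox, 18.3 and 39.7 in CM -Dox, 9.18 and 12.1 in Control +Dox, and 62.4 and 32.1 in Control -Dox. Both CM +Dox ranks were lowest, by a small margin over Control +Dox. A site in Ddb2, 34.1 kb from the gene, ranked 74.6 and 59.1 in CM +Dox and 16.6 to 40.5 in the 5 other libraries that called it. The strongest CHD7 site in the window was the Acp2 start printed above, which overlaps the 5′ end of the Nr1h3 gene body. CHD7 ranked 98 and 98.6 in CM +Dox, 97.5 and 99 in CM -Dox, 96.2 and 98.7 in Control +Dox, and 97.1 and 98.4 in Control -Dox, and no library had RUNX1 there.

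Nr3c1, the glucocorticoid receptor, had 0 RUNX1 sites in both CM +Dox libraries, against 2 or 3 in each of the other 6. The gene lies on chromosome 18, from 39410545 to 39519421. The lost site, 29.5 kb outside the gene on the side of Arhgap26 (chr18:39380394-39381090), ranked 41.2 and 53.3 in CM -Dox, 8.59 and 59.2 in Control +Dox, and 29.2 and 55.8 in Control -Dox, and it was not called in CM +Dox. An intragenic site was called in neither CM +Dox library, in both CM -Dox libraries at 49.1 and 78.3, in Control +Dox replicate 2 at 24.6 and in Control -Dox replicate 2 at 56.2. A further site in Arhgap26 was called in the 4 Control libraries alone, at 19.4 to 32.8, and in no CM library with or without the drug. No RUNX1 site in the Nr3c1 window was called in all 6 libraries apart from the lost one, whose mean rank of 41.2 put it 1815th of 2384. That site was no longer counted as lost with only peaks at or above the median score, or with lists of the same length.

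CHD7 ran the other way in number at Nr3c1. CM +Dox libraries had 9 and 8 CHD7 sites in the window, against 3 and 5 in CM -Dox, 0 and 4 in Control +Dox, and 1 and 3 in Control -Dox, so the groups did not overlap. Of all protein-coding genes, 3.67% had more CHD7 sites in both CM +Dox libraries than in each of the other 6, and Nr3c1 is the only 1 of the 8 receptor genes that did. Of the 20 CHD7 sites in the window, 14 were called in 1 library only, and ranks in CM +Dox ran from 10.2 to 94.9. A site in the gene at chr18:39458727-39459519 ranked 81.5 and 52.2 in CM +Dox and 7.48 in CM -Dox replicate 2, the only other library to call it. The gained CHD7 site, chr18:39542876-39543497, lies 23.5 kb outside the gene and ranked 76 and 37.8 in CM +Dox, with no call in the other 6 lists. By mean rank it stood 326th of 1181 gained CHD7 sites. It was no longer counted as gained with only peaks at or above the median score, or with lists of the same length.

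Nr4a1, an orphan receptor and immediate-early gene, kept all 3 of its RUNX1 sites that the 6 libraries without induced CM shared. Of all such sites in the data, 56.7% were called in both CM +Dox libraries. Nr4a1 had 6 and 8 RUNX1 sites in CM +Dox, 3 and 5 in CM -Dox, 9 and 4 in Control +Dox, and 4 and 5 in Control -Dox. The gene spans 101253902 to 101274795 on the + strand of chromosome 15. The strongest site, chr15:101320589-101321144, lies 45.8 kb beyond the gene near Smim41. It ranked 96.1 and 96.9 in CM +Dox, 96.2 and 95.7 in CM -Dox, 95.5 and 96 in Control +Dox, and 94.9 and 96 in Control -Dox, a spread of about 2 rank points in all. CHD7 was called over it in 1 CM +Dox library (81.9) and in 2 of the others, at 71.8 and 86.2.

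A site 6.89 kb upstream of the gene body ranked 82.9 and 94.9 in CM +Dox, 82 and 68.5 in CM -Dox, 80.3 and 78 in Control +Dox, and 85 and 65.2 in Control -Dox, again overlapping. The sites upstream that differed from CM -Dox were weaker. One in Grasp ranked 49.7 and 42.9 in CM +Dox and was otherwise called in Control +Dox replicate 1 only, at 36.6. Another, 5.59 kb upstream, ranked 17.3 and 28.7 in CM +Dox, was not called in CM -Dox, and ranked 33 and 17.3 in Control +Dox and 40.1 and 13 in Control -Dox. It was thus called in 4 Control libraries as well.

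The Atg101 start, 9.07 kb beyond Nr4a1 and printed above, was called in all 16 libraries with very unequal ranks of the 2 antibodies. CHD7 ranked 99.9 and 99.8 in CM +Dox, 99.8 and 100 in CM -Dox, 99.9 and 99.9 in Control +Dox, and 99.7 and 99.8 in Control -Dox. RUNX1 ranked 10.3 and 18 in CM +Dox, 18.1 and 4.73 in CM -Dox, 30.3 and 3.4 in Control +Dox, and 17 and 14.4 in Control -Dox. Neither antibody separated the conditions there. With the last Pparg site, these were the sites of the receptor windows called in every library.

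Nr5a2, the liver receptor homologue, known from steroid and bile acid synthesis and from early embryos, had 1 site for each antibody in a window of 218 kb, at one place. The RUNX1 site, chr1:136845337-136845713, lies inside the gene, 108 kb downstream of the nearest annotated start on the − strand. RUNX1 ranked 76.8 and 66.2 in CM +Dox and was called in none of the other 6 libraries. With a mean rank of 71.5 it stood 3rd of 181 gained RUNX1 sites. CHD7 was called there with and without CM, at 99.2 and 99 in CM +Dox, 94.6 and 96.4 in CM -Dox, 94.2 and 84.3 in Control +Dox, and 50.9 in Control -Dox replicate 2, with no call in replicate 1. Both CM +Dox ranks of CHD7 exceeded the rest, in a gene chosen on its RUNX1 calls. How often that holds over all CHD7 sites was not counted.

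Among all 181 gained RUNX1 sites, 19 (10.5%) had a CHD7 peak in both CM +Dox libraries and in 5 or 6 of the others, as the Nr5a2 site did. The sites most like it over the 16 values lay near Ice2 (distance 79.4), near Gnaq (80.9), in Atxn3 (87.6), in Ipo11 (88.8) and near Plau (91.2). These too were picked on the same values. None of the 5 was itself gained, each having a RUNX1 peak in some library without induced CM, and the distances are far larger than that of the first Pparg site to its nearest match.

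At the 4 lost RUNX1 sites of the receptor windows, CHD7 peaks were present in 12.5% of site and library pairs in CM +Dox and in 62.5% in the other 6 libraries. The Pparg pair had CHD7 in 0 of 4 such pairs in CM +Dox and in 12 of 12 in the others, whereas the Nr1h3 and Nr3c1 sites had it in 1 of 4 in CM +Dox and 3 of 12 in the others, 25% each. The difference between the shares thus comes from Pparg, whose sites were among those the genes were chosen on. Over all 2384 lost sites the shares were 25% in CM +Dox and 43.1% in the others. At the 11 member sites with RUNX1 in all 8 libraries the shares were 36.4% in CM +Dox and 40.9% in the others, with 60.6% in CM +Dox and 63.5% in the others over all 4833 such sites.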

How the data were processed

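Each library has a peak list of its own. The submitters' processing notes name MACS2 2.0.10, Bowtie2 2.0.6 and the build mm10; the background library and any read filters are steps not given in the sources used here. What the authors deposited as a score is the −log10 of the peak's p-value, as the files show: no score falls under the threshold that the peak names of its list carry. The score served to rank and filter peaks inside a list and nothing else, and read depth is unknown.

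For each antibody, peaks of the 19 autosomes and of X and Y that shared 1 bp or more were merged into sites. Python 3.11.15, numpy 2.4.6 and matplotlib 3.10.9 were used, and the merging and calling steps were checked on simulated data. Gene positions and promoters came from RefSeq, assembly GRCm38.p6. CHD7 at a RUNX1 site means a CHD7 peak that overlaps the RUNX1 interval itself. The 8 genes and the related gene lists were chosen with earlier results of these data known. All 8 genes are named; sites were given by library where lost or gained at a mean rank of at least 50, called in all 16 libraries, or within 1 kb of a gene end in at least 4 libraries. Further sites were added after their values were seen, so that each gene's recurrent sites are covered. No test was made, because the members were selected on these calls; the smallest exact p that 2 against 6 libraries allow is 0.0357, and for 2 against 2 it is 0.333. Alternatives were narrower windows, stricter scores, a common RUNX1 threshold, equal list lengths, a larger overlap, each replicate number alone and each library left out. Leaving out the library with the contrary tag in the Control comparison was added after seeing the data.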

Additional observations from a re-analysis of the deposited data

How the results depend on the processing

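In the 8 receptor windows, the counts of 4 lost and 1 gained RUNX1 sites (2384 and 181 over all sites) became 2 and 2 under a score minimum at the median (1398 and 127 over all sites), 1 and 8 with the same number of peaks per list (1151 and 901), 7 and 3 within replicate number 1 (4118 and 789), and 7 and 3 within replicate number 2 (3782 and 974). The counts of 1 lost and 1 gained CHD7 site (211 and 1181) became 2 and 2 under that minimum (107 and 763), 2 and 2 with the same number of peaks per list (303 and 463), 2 and 17 within replicate number 1 (1315 and 19018), and 3 and 11 within replicate number 2 (1507 and 10045). The gained CHD7 count was 0 both with 10 kb either side and in the gene body only. At a common threshold of 1e-09 the RUNX1 counts stayed at 4 lost and 1 gained (2379 and 174 over all sites). Leaving out each library in turn gave 4 to 6 lost and 1 to 2 gained RUNX1 sites, and 1 to 2 lost and 1 to 13 gained CHD7 sites. The gained RUNX1 count of 2 came without CM +Dox replicate 2 (566 over all sites), CM -Dox replicate 2 (266) or Control +Dox replicate 1 (229). The lost CHD7 count of 2 came without CM +Dox replicate 2 (793) or CM -Dox replicate 1 (336). The gained CHD7 count was 9 without CM +Dox replicate 1 (8624), 13 without CM +Dox replicate 2 (14162) and 3 without CM -Dox replicate 2 (1931). In Control +Dox against Control -Dox, leaving out Control -Dox replicate 1, an alternative chosen after seeing the data, gave 1 lost and 2 gained RUNX1 sites in place of 0 and 0 (1405 and 595 over all sites, against 362 and 145). Leaving out libraries or using 1 replicate number loosens the definitions by construction; the cause of the other shifts was not tested. The first Pparg RUNX1 site and the Nr5a2 site kept their calls in 16 of 16 alternatives and the lost Pparg CHD7 site in 15 of 15. The second Pparg site and the Nr1h3 site did so in 14 of 16, the Nr3c1 RUNX1 site in 12 of 16 and the Nr3c1 CHD7 site in 11 of 15. The larger overlap changes nothing by construction, since sites are unions of their peaks. Looser definitions can hardly undo a call either, nor can narrower windows for a site inside a gene. For such a site only the score minimum, the equal list lengths and, for RUNX1, the common threshold could do so. The tallies of kept calls therefore say little about how stable a site is. No result comes from a test, so there was none to pair; the counts within each replicate number stand above. Unknown depth limits every missing call.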

Other observations

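Among the other 41 nuclear receptor genes, 34 RUNX1 sites were shared by the 6 libraries without induced CM. Of these 4 were lost (11.8%, against 27.9% of all sites): 2 at Esr1, the estrogen receptor, with mean ranks of 74.5 and 56.2, 1 at Nr1i3 (61.3) and 1 at Nr2c2 (17.3), and none was gained. None of their 23 CHD7 sites of this kind was lost, with 3.65% over all sites. There were 4 gained CHD7 sites, at Rorb (mean rank 59.7), Nr1i3 (52.4), Rarg (44.9) and Esr2 (28.9). They lie in 4 of the 41 gene windows, and 8.41% of all genes have a gained CHD7 site.

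Of 24 such RUNX1 sites at 15 nuclear receptor coregulator genes, 8 were lost (33.3%, with 27.9% over all sites) and none was gained. The lost sites of highest mean rank were inside Ncoa2 (90.7 and 84.6), which encodes a p160 coactivator, and 6.04 kb from Crebbp, the histone acetyltransferase gene, in its neighbour Trap1 (86.5). The first Ncoa2 site was called in neither CM +Dox library and ranked 81 and 84.5 in CM -Dox, 96.2 and 92.3 in Control +Dox, and 94.8 and 95.2 in Control -Dox. Lower ones lay at Ncoa3 (70.3), Tbl1x (69.7), Crebbp (58.4 and 31.4) and Med1 (42.2). Of their 19 CHD7 sites of this kind 1 was lost (5.26%, with 3.65% over all sites), 1.89 kb from Hdac3 in Diaph1 (78.6). Another 2 CHD7 sites were gained, at Nrip1 (38.5 and 26.5), 1 of the 15 genes, with 8.41% over all genes.

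At 25 genes known as targets of these receptors, 9 of 38 such RUNX1 sites were lost (23.7%, with 27.9% over all sites). Another 2 RUNX1 sites were gained, in 2 of the 25 gene windows, with 2.07% over all genes. The strongest lost ones were in Zbtb16 (mean rank 86.7), a glucocorticoid-induced gene, beside Apoe (83.3) and in Abcg1 (80), the last a cholesterol transporter and a target of Nr1h3. One 31.1 kb from Mylip was called in neither CM +Dox library, and ranked 25.3 and 27.8 in CM -Dox, 98.2 and 98.8 in Control +Dox, and 98.6 and 98.9 in Control -Dox. It thus stood far lower in cells with the uninduced CM construct than in Control cells. None of 20 such CHD7 sites was lost, with 3.65% over all sites. Gained CHD7 sites numbered 5, in 5 of the 25 gene windows, with 8.41% over all genes. They were led by one 19.2 kb from Lpl, the lipoprotein lipase gene, at 91.6 and 93.6 in CM +Dox.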
